A study of Sus scrofa with 16 samples.

Results

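The comparison described here sets IVF-derived porcine embryonic stem cells (pESCs) that had been driven for 16 days towards ventral midbrain dopaminergic neurons against the same line at day 0, before neural induction. Its members were chosen by label alone, as the IVF libraries of those days. They numbered 4 of the 16 libraries of the series, with 2 libraries at day 16 and 2 at day 0, and they were described across all expressed genes. The series followed 2 pESC lines, one from in vitro fertilised (IVF) blastocysts and one from parthenogenetically activated (PA) blastocysts, at days 0, 16, 28 and 45 of differentiation by bulk sequencing of poly-A RNA. Each origin was represented by 1 line, so line and origin cannot be told apart.

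Day 16 cells carried the tissue label Midbrain and the cell type label of midbrain dopaminergic neurons. They had been plated on Matrigel, exposed in N2B27 medium to the TGF-beta receptor inhibitor SB431542, to Noggin, to the modified Sonic hedgehog protein SHH-C24II and to the GSK3 inhibitor CHIR99021, then given FGF8, and finally replated in B27 medium with FGF8b, BDNF and ascorbic acid. The Notch pathway inhibitor DAPT, GDNF and db-cAMP were added only after the day 16 harvest. Day 0 cells carried the stem cell label and came from a line kept on inactivated mouse fibroblast feeders in a medium named FIW. No source said whether the replicates of a day were separate cultures, so the p-values given below measure only the spread between these libraries, which may be technical.

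Midbrain dopaminergic neurons arise in the embryo from the floor plate, a ventral strip of the neural tube that secretes Sonic hedgehog and, in the midbrain, also WNT1 and expresses FOXA2 and LMX1A. Inhibiting NODAL, TGF-beta and BMP signals turns pluripotent cells towards neural ectoderm, hedgehog agonists set the ventral side, and graded WNT activation sets the position along the head-to-tail axis. Progenitors then pass through a proneural stage, leave the cell cycle and switch on the genes for neuronal cytoskeleton, transmitter synthesis and synapses.

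The day 16 libraries held 46220784 and 46242565 counts, against 39247693 and 40369138 at day 0. Levels are given as CPM, counts scaled to a common library size with TMM factors, which can be compared between libraries for 1 gene, while TPM, which also divides by transcript length, is used between genes. A gene was called when the day 16 to day 0 fold change was at least 2 and the Benjamini-Hochberg adjusted p of edgeR's quasi-likelihood test was below 0.05. Log2 fold changes are day 16 over day 0 and carry their standard error. For a gene with 0 counts in both libraries of a day, a bound was computed with 3 counts per library in place of 0.

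The labels were first set against marker genes. Of 8 stem cell markers, 7 fell and the eighth, SOX2, was not called, at 143 and 118 CPM at day 16, against 254 and 222 CPM at day 0, although it was called as lower without day 16 replicate 1 (log2 fold change -1.01). Of 8 dopaminergic neuron markers, 6 rose, the transporter gene SLC6A3 was not called and the vesicular monoamine transporter gene SLC18A2 fell. TH, which encodes the enzyme that sets the rate of dopamine synthesis, stood at 4.6 and 4.19 CPM at day 16, against 0 and 0 CPM at day 0, and was at least 54.7-fold higher. In the TPM scale used between genes, TH had 6.18 and 5.56 TPM at day 16, against 0 and 0 TPM at day 0, whereas the floor plate gene CORIN had 76.4 and 66.2 TPM at day 16, against 0.0111 and 0.0483 TPM at day 0. The floor plate gene thus stood far above TH in libraries that carry the dopaminergic label. In bulk RNA, fewer cells of a type and less RNA per cell cannot be told apart, here or for any gene below.

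In all, 18528 of 28232 genes were tested. At day 16, 3745 genes were higher than at day 0, which was 20.2% of the genes tested, and 2590 were lower, which was 14.0%. These shares are the background for every list count given below. The libraries of the days did not overlap for 83.4% of the genes tested, so that non-overlap alone carries little information in this comparison. Of the called genes, 1323 rose and 822 fell by at least 8-fold, and 759 rose and 439 fell by at least 32-fold. Rises from 0 counts were common, since 509 of the rising genes had 0 counts in both day 0 libraries, while 283 of the falling genes had 0 counts in both day 16 libraries. A mean of at least 1 CPM was reached by 1134 genes only at day 16, by 770 only at day 0 and by 12925 on both days. The rising genes took 17.2% of counts in each day 16 library, against 4% and 3.86% at day 0. The falling genes took 6% and 5.94% of counts at day 16, against 16.4% and 16.8% at day 0. Among long non-coding RNA genes 26% rose and 9.41% fell, and among protein-coding genes 19.6% rose and 14.7% fell.

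**Figure D1:**
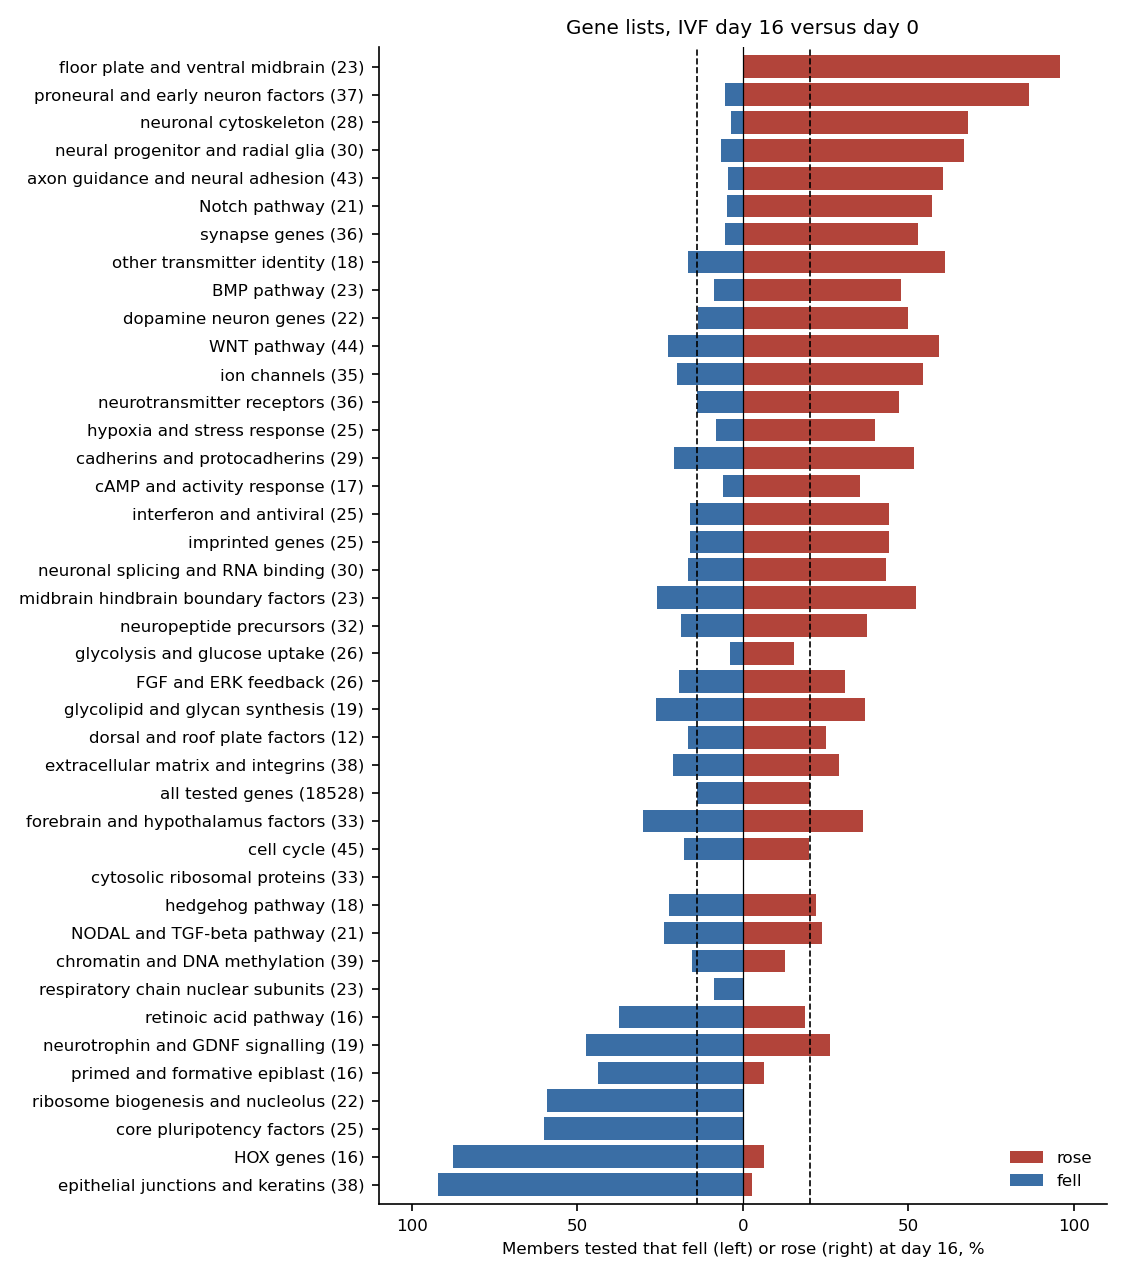
Genes of each list that rose (bars to the right) or fell (bars to the left) in IVF cells at day 16 relative to day 0, as a percentage of the members tested, which are given in brackets. Dashed lines mark the share of all tested genes that rose (20.2%) or fell (14.0%). Floor plate and proneural lists lie almost wholly to the right, and HOX and epithelial lists almost wholly to the left. Of the core pluripotency factors, 15 of 25 fell and 0 rose. HOX genes without counts at day 16 passed the filter only through other groups.

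Most genes of the pluripotency network were lower at day 16 or no longer detected. Of 25 core pluripotency factors tested, 15 fell, 0 rose and 10 were not called, with a median log2 fold change of -4.19, against 0.00 over all tested genes. POU5F1, the octamer-binding factor at the centre of the network, had 0 and 0 CPM at day 16, against 929 and 907 CPM at day 0, and was at least 14400.0-fold lower. The other members without a single count at day 16 included ZFP42, the zinc finger gene also known as REX1, at 0 and 0 CPM at day 16, against 36.7 and 35.9 CPM at day 0. TDGF1, the NODAL co-receptor gene, had 0 and 0 CPM at day 16, against 13.2 and 12.1 CPM at day 0. For both genes the day 16 libraries lay below the day 0 libraries without overlap. NANOG was at 0.17 and 0.192 CPM at day 16, against 16.1 and 15.5 CPM at day 0 (log2 fold change -6.43 ± 0.49, edgeR adjusted p = 5.41e-08). Other members fell but stayed detectable. LIN28A, an RNA-binding regulator, had 7.85 and 5.58 CPM at day 16, against 300.1 and 296 CPM at day 0 (log2 fold change -5.47 ± 0.28, edgeR adjusted p = 9.37e-10). TRIM71, which acts with it in developmental timing, had 39.5 and 37.1 CPM at day 16, against 421 and 454 CPM at day 0. The telomerase gene TERT had 16.9 and 14.1 CPM at day 16, against 36.4 and 33.6 CPM at day 0. SALL4, a zinc finger factor of early embryos, kept a level of 29.3 and 27 CPM at day 16, against 568 and 561 CPM at day 0 (log2 fold change -4.33 ± 0.22, edgeR adjusted p = 8.51e-10). The fall was thus graded, with some members at 0 and others reduced.

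Some members did not follow. MYCN, which is shared by stem cells and neural progenitors, had 57.1 and 55.2 CPM at day 16, against 63.5 and 62.1 CPM at day 0. LIN28B had 29.6 and 20.7 CPM at day 16, against 44.5 and 42.5 CPM at day 0. Neither was called, although LIN28B was without day 16 replicate 1 (log2 fold change -1.07). The naive-state factors KLF4, KLF5 and ESRRB lay between 4.15 and 8.41 CPM on average on both days and were not called either. Beyond the list, the largest falls among genes with at least 5 CPM on the higher day included ADGRG2, TNFSF11, GABRP, GRB7, KCNK13, COL21A1, CDA, MARVELD3 and PROX2, each at 0 counts in both day 16 libraries or close to it. CDA, which encodes cytidine deaminase, had 0 and 0 CPM at day 16, against 9.46 and 11.3 CPM at day 0, and was at least 163-fold lower. GRB7, an adaptor of receptor tyrosine kinases, had 0 and 0 CPM at day 16, against 14.8 and 13.4 CPM at day 0.

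The genes of the primed epiblast, the state that precedes germ layer formation, split. Of 16 tested, 7 fell and 1 rose. DNMT3B, a de novo DNA methyltransferase, had 39.8 and 42.5 CPM at day 16, against 1771 and 1951 CPM at day 0 (log2 fold change -5.50 ± 0.18, edgeR adjusted p = 1.49e-11). Among the zinc finger factors of the ZIC family, ZIC2 had 1.38 and 1.75 CPM at day 16, against 446 and 405 CPM at day 0. ZIC5 had 2.71 and 4.45 CPM at day 16, against 319.6 and 296 CPM at day 0. Both were lower at day 16 in both libraries, although they also have roles in the dorsal neural tube. POU3F1, a POU factor of epiblast and early neural plate, had 5.07 and 5.56 CPM at day 16, against 122 and 95.3 CPM at day 0 (log2 fold change -4.35 ± 0.17, edgeR adjusted p = 1.02e-10). OTX2, which marks both the epiblast and the embryonic forebrain and midbrain, had 353 and 349.7 CPM at day 16, against 581 and 586 CPM at day 0 and was not called (log2 fold change -0.73 ± 0.21, edgeR adjusted p = 0.00796). SOX3 was the only member that rose, to 5.26 and 4.96 CPM at day 16, against 0.109 and 0.291 CPM at day 0 (log2 fold change 4.65 ± 0.32, edgeR adjusted p = 2.15e-08).

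In the hedgehog pathway the ligand and ventral homeobox genes moved against the transcriptional effectors. The 18 members tested comprised 4 that rose, 4 that fell and 10 not called. Of all genes tested 20.2% rose and 14.0% fell, so the counts of this list were not unusual. SHH had 161 and 125 CPM at day 16, against 0.217 and 0.264 CPM at day 0 (log2 fold change 9.19 ± 0.27, edgeR adjusted p = 9.98e-12). The ventral homeobox gene NKX6-1 had 46.2 and 38.9 CPM at day 16, against 0.19 and 0 CPM at day 0 (log2 fold change 8.78 ± 0.49, edgeR adjusted p = 2.71e-09). NKX2-2 had 14.9 and 13.8 CPM at day 16, against 0 and 0 CPM at day 0, at least 178-fold higher. For all 3 genes day 0 was near or at 0. The GLI factors, which turn the signal into transcription, all fell. GLI1, a direct target of the pathway in mammals, had 2.84 and 3.3 CPM at day 16, against 19.5 and 24 CPM at day 0 (log2 fold change -2.82 ± 0.34, edgeR adjusted p = 6.14e-06). GLI2, the main activator, had 1.31 and 1.21 CPM at day 16, against 73.6 and 69.1 CPM at day 0 (log2 fold change -5.82 ± 0.29, edgeR adjusted p = 8.79e-10). GLI3, the main repressor, had 5.79 and 6.92 CPM at day 16, against 46.6 and 38.8 CPM at day 0 (log2 fold change -2.75 ± 0.25, edgeR adjusted p = 4.16e-07). Of the co-receptor genes, GAS1 fell with them, at 0.0424 and 0.149 CPM at day 16, against 5.22 and 4.52 CPM at day 0. BOC rose, at 26.6 and 23.5 CPM at day 16, against 8.23 and 8.8 CPM at day 0, so the co-receptors did not move together. The receptor gene PTCH1, a negative feedback target, had 124 and 115 CPM at day 16, against 74.9 and 72.4 CPM at day 0 and was not called (log2 fold change 0.69 ± 0.13, edgeR adjusted p = 4.38e-04). HHIP, a decoy receptor and target, had 11.5 and 12.8 CPM at day 16, against 12.4 and 13.4 CPM at day 0 with overlapping libraries, and SMO and SUFU were not called.

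The WNT pathway had more called members than the hedgehog list. Of 44 tested, 26 rose and 10 fell, with a median log2 fold change of 1.29. Among ligands and agonists, WNT1 had 47.2 and 37.6 CPM at day 16, against 0.0815 and 0.106 CPM at day 0 (log2 fold change 8.78 ± 0.36, edgeR adjusted p = 3.35e-10). WNT8B had 127 and 123 CPM at day 16, against 0 and 0.0264 CPM at day 0, a 9429-fold higher mean with a 95% counting interval of 1668 to 367240.0. WNT5A, a ligand of the planar polarity branch, had 92.6 and 107 CPM at day 16, against 19 and 17.1 CPM at day 0. The agonist gene RSPO2 had 54.2 and 47.2 CPM at day 16, against 1.06 and 0.872 CPM at day 0. All of these libraries separated by day. Receptor genes moved both ways. FZD5 had 3.39 and 3.26 CPM at day 16, against 461 and 435 CPM at day 0 (log2 fold change -7.07 ± 0.17, edgeR adjusted p = 4.30e-12). FZD8 had 13.8 and 13.1 CPM at day 16, against 97.6 and 97.4 CPM at day 0. LGR4, the R-spondin receptor gene, had 91.8 and 101 CPM at day 16, against 408 and 408 CPM at day 0. FZD10 rose, at 16.8 and 18.9 CPM at day 16, against 1.88 and 1.27 CPM at day 0, as did FZD1, FZD9 and, at the edge of the 2-fold minimum, FZD3. The secreted antagonist gene SFRP1 had 187 and 151 CPM at day 16, against 626 and 614 CPM at day 0 (log2 fold change -1.88 ± 0.29, edgeR adjusted p = 5.56e-05).

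Several genes that WNT signals are known to switch on rose. AXIN2, a negative feedback gene, had 126 and 141 CPM at day 16, against 31.5 and 30 CPM at day 0 (log2 fold change 2.12 ± 0.14, edgeR adjusted p = 9.38e-09). SP5 had 5.56 and 6.83 CPM at day 16, against 0 and 0 CPM at day 0, at least 77.1-fold higher. The feedback gene ZNRF3 had 95.4 and 105 CPM at day 16, against 18.6 and 21.4 CPM at day 0. Among the DNA-binding partners of beta-catenin, LEF1 rose, at 34.1 and 41 CPM at day 16, against 4.27 and 3.43 CPM at day 0 (log2 fold change 3.29 ± 0.15, edgeR adjusted p = 4.37e-10), while TCF7L1 fell, at 68.2 and 73.8 CPM at day 16, against 301 and 278 CPM at day 0 (log2 fold change -2.03 ± 0.13, edgeR adjusted p = 1.22e-08). TCF7L2 fell as well and TCF7 was not called, so LEF1 was the member of that family that rose. RNF43 and SP8, which also belong to the list, fell.

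In the Notch pathway, which holds progenitors undifferentiated through contact between neighbouring cells, 12 of 21 tested genes rose and 1 fell, with a median log2 fold change of 1.68. All 4 ligand genes tested rose. DLL1 had 70.5 and 88 CPM at day 16, against 22.4 and 21 CPM at day 0. JAG1 had 233 and 198 CPM at day 16, against 27.1 and 24.6 CPM at day 0 (log2 fold change 3.06 ± 0.17, edgeR adjusted p = 2.63e-09). Among the target repressors, HEY1 had 110.5 and 105 CPM at day 16, against 2.01 and 2.03 CPM at day 0 (log2 fold change 5.73 ± 0.16, edgeR adjusted p = 8.96e-12). HEYL had 23.1 and 25.1 CPM at day 16, against 0.136 and 0 CPM at day 0 (log2 fold change 8.43 ± 0.53, edgeR adjusted p = 7.38e-09). HES5, the classical Notch target of neural progenitors, had 11.3 and 15.9 CPM at day 16, against 0.0544 and 0 CPM at day 0, a 499-fold higher mean with a 95% counting interval of 139.9 to 4187. HEY2 went the other way, at 1.68 and 1.53 CPM at day 16, against 6.39 and 7.29 CPM at day 0 (log2 fold change -2.09 ± 0.41, edgeR adjusted p = 4.58e-04). The receptor genes NOTCH2 and NOTCH3 and the DNA-binding partner gene RBPJ were not called. The coactivator gene MAML2 had 90.1 and 80.6 CPM at day 16, against 3.23 and 3.22 CPM at day 0.

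The starts of HES5, HEYL and HEY2 are shown because they hold the letters that RBPJ binds, and because HEY2 has them too although its level fell. Each sequence covers the 250 bases before and 50 bases after the annotated start in Sscrofa11.1, read 5′ to 3′ on the gene's own strand from the RefSeq genome, with matches to GTGGGAA on either strand in capitals. The window of HES5 was chr6:64410492-64410791, minus strand, that of HEYL chr6:95459548-95459847, minus strand and that of HEY2 chr1:37231272-37231571, minus strand. HES5 and HEY2 held 2 matches each, and HEYL held 1.
HES5: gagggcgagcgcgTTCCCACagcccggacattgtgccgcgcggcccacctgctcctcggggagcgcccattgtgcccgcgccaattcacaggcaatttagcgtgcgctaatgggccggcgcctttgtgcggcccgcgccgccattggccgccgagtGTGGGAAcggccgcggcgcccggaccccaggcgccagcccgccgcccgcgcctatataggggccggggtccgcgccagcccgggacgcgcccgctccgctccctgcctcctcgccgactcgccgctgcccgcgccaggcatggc
HEYL: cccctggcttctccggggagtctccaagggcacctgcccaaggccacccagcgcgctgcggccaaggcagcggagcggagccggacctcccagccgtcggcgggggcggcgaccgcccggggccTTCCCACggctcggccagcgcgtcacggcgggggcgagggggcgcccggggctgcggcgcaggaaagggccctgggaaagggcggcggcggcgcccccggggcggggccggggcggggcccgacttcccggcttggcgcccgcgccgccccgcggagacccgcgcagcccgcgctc
HEY2: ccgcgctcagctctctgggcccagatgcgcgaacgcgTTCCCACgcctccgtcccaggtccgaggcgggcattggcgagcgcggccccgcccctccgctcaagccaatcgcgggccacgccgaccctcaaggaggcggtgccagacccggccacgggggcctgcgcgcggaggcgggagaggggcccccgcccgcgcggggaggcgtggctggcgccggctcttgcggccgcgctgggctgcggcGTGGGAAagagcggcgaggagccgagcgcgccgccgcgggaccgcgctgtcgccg
Over all 18201 windows of tested genes 5.93% held the motif, as did 6.29% of windows of rising genes and 6.05% of windows of falling genes. In the Notch list 5 of 21 windows held it. A match describes letters only and does not show binding.

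The starts of AXIN2 and LEF1 are shown for the same reason, with matches to CTTTGAT, the letters bound by TCF and LEF factors, in capitals. The AXIN2 window was chr12:12343158-12343457, minus strand, and the LEF1 window chr8:113824261-113824560, plus strand.
AXIN2: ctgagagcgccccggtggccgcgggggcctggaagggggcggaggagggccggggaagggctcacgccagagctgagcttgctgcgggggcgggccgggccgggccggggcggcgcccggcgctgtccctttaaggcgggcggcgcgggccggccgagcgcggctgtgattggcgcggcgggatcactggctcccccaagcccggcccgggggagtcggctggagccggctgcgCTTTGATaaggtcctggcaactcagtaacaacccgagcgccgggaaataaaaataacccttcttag
LEF1: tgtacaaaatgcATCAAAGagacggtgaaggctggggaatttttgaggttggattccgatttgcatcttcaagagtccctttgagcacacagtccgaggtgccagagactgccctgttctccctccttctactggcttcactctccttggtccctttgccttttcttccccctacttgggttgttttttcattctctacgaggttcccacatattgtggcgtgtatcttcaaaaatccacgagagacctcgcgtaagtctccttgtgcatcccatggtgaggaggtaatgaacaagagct
This motif was held by 2.08% of all windows, by 2.54% of windows of rising genes and by 2.07% of windows of falling genes. Among genes that rose at least 8-fold the share was 3.83%, and in the WNT list 5 of 44 windows held it. The LEF1 window also held TTCCCAC, which is GTGGGAA read on the other strand and is left in small letters there.

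The NODAL and TGF-beta genes changed in both directions. Of 21 tested, 5 rose and 5 fell, against 20.2% and 14.0% of all genes tested. NODAL had 0 and 0 CPM at day 16, against 1.2 and 1.53 CPM at day 0. The mesendoderm factor gene EOMES had 0 and 0 CPM at day 16, against 3.67 and 2.48 CPM at day 0, and both were at 0 in the day 16 libraries. The activin antagonist gene FST had 11 and 8.07 CPM at day 16, against 123 and 148 CPM at day 0 (log2 fold change -3.83 ± 0.17, edgeR adjusted p = 2.94e-10). By contrast the signal transducer gene SMAD3 had 152 and 155 CPM at day 16, against 1.01 and 2.4 CPM at day 0 (log2 fold change 6.48 ± 0.30, edgeR adjusted p = 3.62e-10). The ligand gene TGFB2 had 45 and 38.2 CPM at day 16, against 1.25 and 1.21 CPM at day 0. SMAD2, SMAD4 and the feedback gene SMAD7 were not called.

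In the BMP list 11 of 23 rose and 2 fell. The ligand gene BMP7 had 50.8 and 58 CPM at day 16, against 0.326 and 0.74 CPM at day 0 (log2 fold change 6.66 ± 0.30, edgeR adjusted p = 3.68e-10). ID3, one of the dominant-negative helix-loop-helix genes that BMP signals induce, had 194 and 184 CPM at day 16, against 36.1 and 41.7 CPM at day 0 (log2 fold change 2.28 ± 0.21, edgeR adjusted p = 3.65e-07), and ID2 and ID4 rose with it. ID1 had 24 and 18.8 CPM at day 16, against 34.1 and 28.5 CPM at day 0 and was not called, nor were the feedback genes SMAD6 and BAMBI. BMP2 fell, at 0.53 and 0.66 CPM at day 16, against 2.09 and 1.64 CPM at day 0.

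FGF genes showed no common direction, with 8 of 26 that rose and 5 that fell, against 20.2% and 14.0% of all genes tested. FGFR1 had 147 and 145 CPM at day 16, against 346 and 344 CPM at day 0 (log2 fold change -1.24 ± 0.15, edgeR adjusted p = 5.65e-06), while FGFR3 had 264 and 271 CPM at day 16, against 80.9 and 78.1 CPM at day 0 (log2 fold change 1.75 ± 0.19, edgeR adjusted p = 1.76e-06). The receptors thus shifted in opposite directions. The carrier protein gene FGFBP3 had 112 and 136 CPM at day 16, against 0.435 and 0.317 CPM at day 0 (log2 fold change 8.36 ± 0.36, edgeR adjusted p = 2.33e-10). Of the feedback genes, DUSP6 rose, at 183 and 145 CPM at day 16, against 64.1 and 66.9 CPM at day 0, and SPRY1, SPRY2, SPRY4, ETV4 and ETV5 were not called. Endogenous FGF8, the organiser signal added as protein in the medium, had 0.488 and 0.277 CPM at day 16, against 2.53 and 1.8 CPM at day 0.

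Retinoic acid genes were mostly lower or not called, with 6 of 16 that fell and 3 that rose. CYP26A1, which degrades retinoic acid and is induced by it, had 2.33 and 2.98 CPM at day 16, against 511 and 551 CPM at day 0 (log2 fold change -7.64 ± 0.22, edgeR adjusted p = 8.96e-12). The binding protein gene CRABP2 had 8.91 and 6.62 CPM at day 16, against 289 and 273 CPM at day 0 (log2 fold change -5.18 ± 0.18, edgeR adjusted p = 2.96e-11). The receptor gene RARG had 2.16 and 2.9 CPM at day 16, against 51.3 and 55.6 CPM at day 0. These 3 were the best expressed falling members at day 0. CRABP1 rose, at 28.5 and 29.5 CPM at day 16, against 3.1 and 2.56 CPM at day 0, as did RARB and RXRG.

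**Figure D2:**
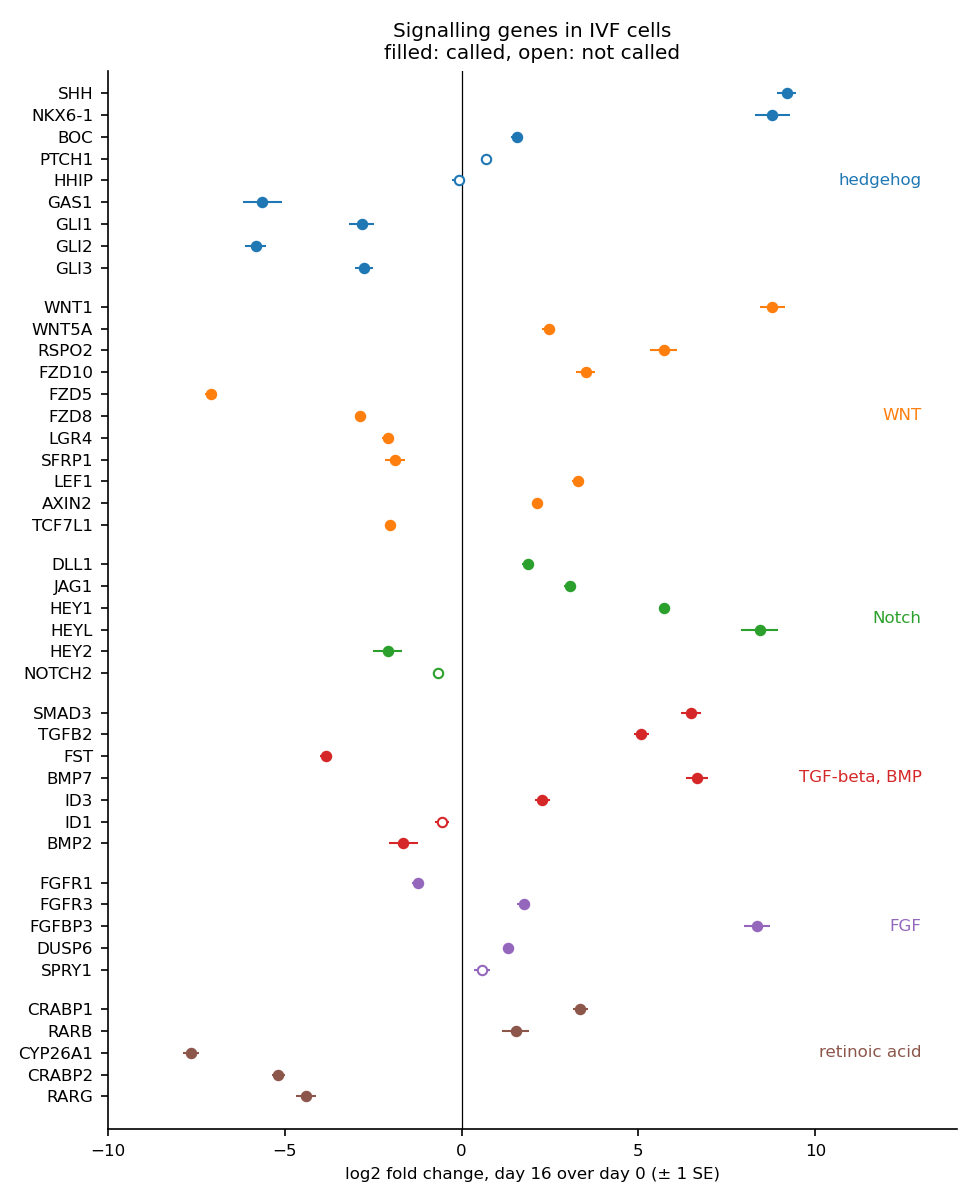
Log2 fold change, day 16 over day 0, of selected members of the hedgehog, WNT, Notch, TGF-beta and BMP, FGF and retinoic acid lists in IVF cells. Points are edgeR estimates, bars are 1 standard error, filled points were called and open points were not. SHH and WNT1 lie far to the right while GLI1, GLI2, GLI3, FZD5 and CYP26A1 lie to the left.

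The floor plate and ventral midbrain list rose almost throughout. Of 23 members tested 22 rose and 0 fell, with a median log2 fold change of 6.57. OTX2 was the member not called. FOXA2, the forkhead factor that specifies floor plate, had 78.2 and 86.9 CPM at day 16, against 2.28 and 6.47 CPM at day 0 (log2 fold change 4.23 ± 0.36, edgeR adjusted p = 1.57e-07). LMX1A had 157 and 176 CPM at day 16, against 3.59 and 3.51 CPM at day 0 (log2 fold change 5.55 ± 0.26, edgeR adjusted p = 4.53e-10). FERD3L, a helix-loop-helix gene of the midbrain floor plate, had 261 and 294 CPM at day 16, against 0.136 and 0 CPM at day 0 (log2 fold change 11.96 ± 0.40, edgeR adjusted p = 2.36e-11). Their day 16 libraries lay far above those of day 0. The secreted guidance and matrix proteins of the floor plate were among the genes that gained most CPM of all. SLIT2 had 1347 and 1340.5 CPM at day 16, against 13.5 and 14.8 CPM at day 0. SPON1 had 1278 and 1256 CPM at day 16, against 37.5 and 27.7 CPM at day 0. NTN1 had 614 and 583 CPM at day 16, against 16.7 and 11.7 CPM at day 0. These 3 were among the 15 named genes with the largest gain of mean CPM. SIM1 had 87.4 and 75.7 CPM at day 16, against 0.353 and 0.581 CPM at day 0 (log2 fold change 7.44 ± 0.31, edgeR adjusted p = 1.65e-10). Markers of the neighbouring diencephalon and subthalamic lineage rose as well, with BARHL1 at 10.9 and 11.2 CPM at day 16, against 0 and 0 CPM at day 0. BARHL2 had 12.3 and 12.2 CPM at day 16, against 0 and 0 CPM at day 0, at least 152-fold higher.

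Along the head-to-tail axis the forebrain and hypothalamus list was divided, with 12 of 33 that rose and 10 that fell. NKX2-1, which marks the ventral hypothalamus and basal telencephalon, had 51.6 and 45.7 CPM at day 16, against 0 and 0 CPM at day 0, at least 605-fold higher. Its relative NKX2-4 had 3.27 and 3.58 CPM at day 16, against 0 and 0 CPM at day 0. The hypothalamic neuron factor gene OTP had 4.11 and 2.55 CPM at day 16, against 0 and 0 CPM at day 0. These hypothalamic genes had no count at day 0. The rostral factors FEZF1, SIX3 and RAX were lower. FEZF1 had 4.07 and 3.7 CPM at day 16, against 245 and 156 CPM at day 0 (log2 fold change -5.69 ± 0.31, edgeR adjusted p = 2.19e-09). SIX3 had 5.28 and 5.6 CPM at day 16, against 64.6 and 44.9 CPM at day 0 (log2 fold change -3.33 ± 0.27, edgeR adjusted p = 1.31e-07). RAX had 0.276 and 0.128 CPM at day 16, against 6.22 and 2.64 CPM at day 0. POU3F2, a POU factor broadly used by neural precursors, had 322 and 327 CPM at day 16, against 1.01 and 0.977 CPM at day 0 (log2 fold change 8.35 ± 0.30, edgeR adjusted p = 3.97e-11).

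In the list for the midbrain-hindbrain boundary 12 of 23 rose and 6 fell. EN1, an engrailed gene of midbrain and anterior hindbrain, had 1.68 and 0.852 CPM at day 16, against 0.0815 and 0.158 CPM at day 0 (log2 fold change 3.36 ± 0.89, edgeR adjusted p = 0.00467). CNPY1, an FGF feedback gene of the boundary, had 1.38 and 1.45 CPM at day 16, against 0 and 0 CPM at day 0. GBX2, a hindbrain-side factor, had 0.233 and 0 CPM at day 16, against 0 and 0 CPM at day 0 and was not called. It was called as higher without day 16 replicate 2 (log2 fold change 6.45) and by DESeq2 with an unadjusted p (4.55). The levels of EN1 and CNPY1 were thus close to 1 CPM at day 16. PAX2, PAX5 and FGF17 fell, all from low levels, and each lost its call in at least 1 other fit. PAX2 had 0 and 0 CPM at day 16, against 0.489 and 0.475 CPM at day 0, and its adjusted p by edgeR was 0.0803 without day 16 replicate 1 and 0.0802 without day 16 replicate 2. OTX1 had 43.4 and 37.8 CPM at day 16, against 7.88 and 6.66 CPM at day 0 (log2 fold change 2.48 ± 0.22, edgeR adjusted p = 2.45e-07). TAL2, a helix-loop-helix gene of midbrain GABAergic lineages, had 1.06 and 0.852 CPM at day 16, against 40.8 and 52.1 CPM at day 0 (log2 fold change -5.60 ± 0.22, edgeR adjusted p = 9.05e-11).

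The HOX genes tested, which mark hindbrain and spinal cord, were mostly lower at day 16. Of 16 tested, 14 fell and 1 rose, and 13 of the falling genes had 0 counts in both day 16 libraries. Only 16 of the 26 listed HOX genes with deposited counts passed the expression filter. A gene without counts at day 16 can pass it only through other groups, so its fall was largely set in advance. No conclusion is drawn from the count of falls. The best expressed at day 0 was HOXC6, at 0 and 0 CPM at day 16, against 4.78 and 5.28 CPM at day 0, at least 78.9-fold lower, and the others averaged 1.55 CPM or less at day 0. HOXA2 had 0.891 and 1.53 CPM at day 16, against 0.299 and 0.238 CPM at day 0 and was not called. Of 12 dorsal and roof plate factors tested, 3 rose and 2 fell, against 20.2% and 14.0% of all genes tested. PAX6 had 3.61 and 3.98 CPM at day 16, against 19.9 and 9.35 CPM at day 0 (log2 fold change -1.94 ± 0.41, edgeR adjusted p = 9.78e-04). PAX7 had 0.721 and 0.319 CPM at day 16, against 0.109 and 0.106 CPM at day 0 and was not called.

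Progenitor genes mostly rose, with 20 of 30 up, 2 down and a median log2 fold change of 2.41. VIM, the intermediate filament gene of neuroepithelium, had 4102 and 4766 CPM at day 16, against 649 and 538 CPM at day 0, the largest gain of mean CPM among called genes with a symbol. NES had 752 and 691 CPM at day 16, against 274 and 261 CPM at day 0 (log2 fold change 1.43 ± 0.15, edgeR adjusted p = 1.27e-06). NR2F1, a nuclear receptor gene of the developing brain, had 259 and 299 CPM at day 16, against 0.951 and 1.06 CPM at day 0 (log2 fold change 8.12 ± 0.22, edgeR adjusted p = 7.50e-12). NR2F2 had 117 and 129.7 CPM at day 16, against 5.68 and 5.34 CPM at day 0. The 4 genes separated by day without overlap. CDH2, SOX9, SOX21 and MSI1, which are also known from progenitors, were not called. HMGA1, a chromatin protein gene of proliferating cells, had 353 and 360.1 CPM at day 16, against 1680.4 and 1569 CPM at day 0 (log2 fold change -2.19 ± 0.09, edgeR adjusted p = 1.54e-10).

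The proneural and early neuron list rose almost entirely, 32 of 37, with 2 down and a median of 5.37. NEUROG2, a proneural factor gene that is needed for dopaminergic neurogenesis in the mouse, had 89.9 and 115 CPM at day 16, against 2.45 and 1.77 CPM at day 0 (log2 fold change 5.60 ± 0.36, edgeR adjusted p = 9.77e-09). NHLH2 had 33.7 and 39.1 CPM at day 16, against 0.109 and 0 CPM at day 0 (log2 fold change 9.34 ± 0.46, edgeR adjusted p = 7.57e-10). ONECUT1, a homeobox factor of newborn neurons, had 124 and 119 CPM at day 16, against 1.82 and 1.29 CPM at day 0. EBF3 had 104 and 113 CPM at day 16, against 1.22 and 1.06 CPM at day 0. These genes were at most a few CPM at day 0. SOX11 and LHX5 were the falling members, with SOX11 at 127 and 109 CPM at day 16, against 307 and 286 CPM at day 0. LHX5 had 44.1 and 35.1 CPM at day 16, against 142 and 128 CPM at day 0. Both remained well expressed at day 16. ST18, a MYT family zinc finger gene, had 34 and 35.2 CPM at day 16, against 0 and 0 CPM at day 0, at least 430.4-fold higher.

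Cytoskeletal genes of neurons followed, 19 of 28 up and 1 down. DCX, the microtubule protein gene of migrating neurons, had 539 and 512 CPM at day 16, against 15.9 and 17.5 CPM at day 0 (log2 fold change 4.97 ± 0.22, edgeR adjusted p = 2.59e-10). MAPT, which encodes tau, had 211 and 195 CPM at day 16, against 0.978 and 1.72 CPM at day 0 (log2 fold change 7.23 ± 0.31, edgeR adjusted p = 1.79e-10). The light neurofilament gene NEFL had 762 and 797 CPM at day 16, against 0.598 and 0.66 CPM at day 0 (log2 fold change 10.27 ± 0.32, edgeR adjusted p = 1.21e-11). PRPH, a filament gene of peripheral neurons, fell, at 1.63 and 1.77 CPM at day 16, against 11.5 and 9.53 CPM at day 0, while INA, the central filament gene, rose, at 326 and 330.3 CPM at day 16, against 10.6 and 10.2 CPM at day 0. The members already abundant at day 0 moved less. TUBB2B had 2750.5 and 2556 CPM at day 16, against 573 and 427 CPM at day 0. MAP1B had 1775 and 1605 CPM at day 16, against 272 and 277 CPM at day 0. STMN2 had 663 and 749 CPM at day 16, against 178 and 138 CPM at day 0. TUBA1A, DPYSL2, CRMP1 and KIF5C were not called.

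**Figure D3:**
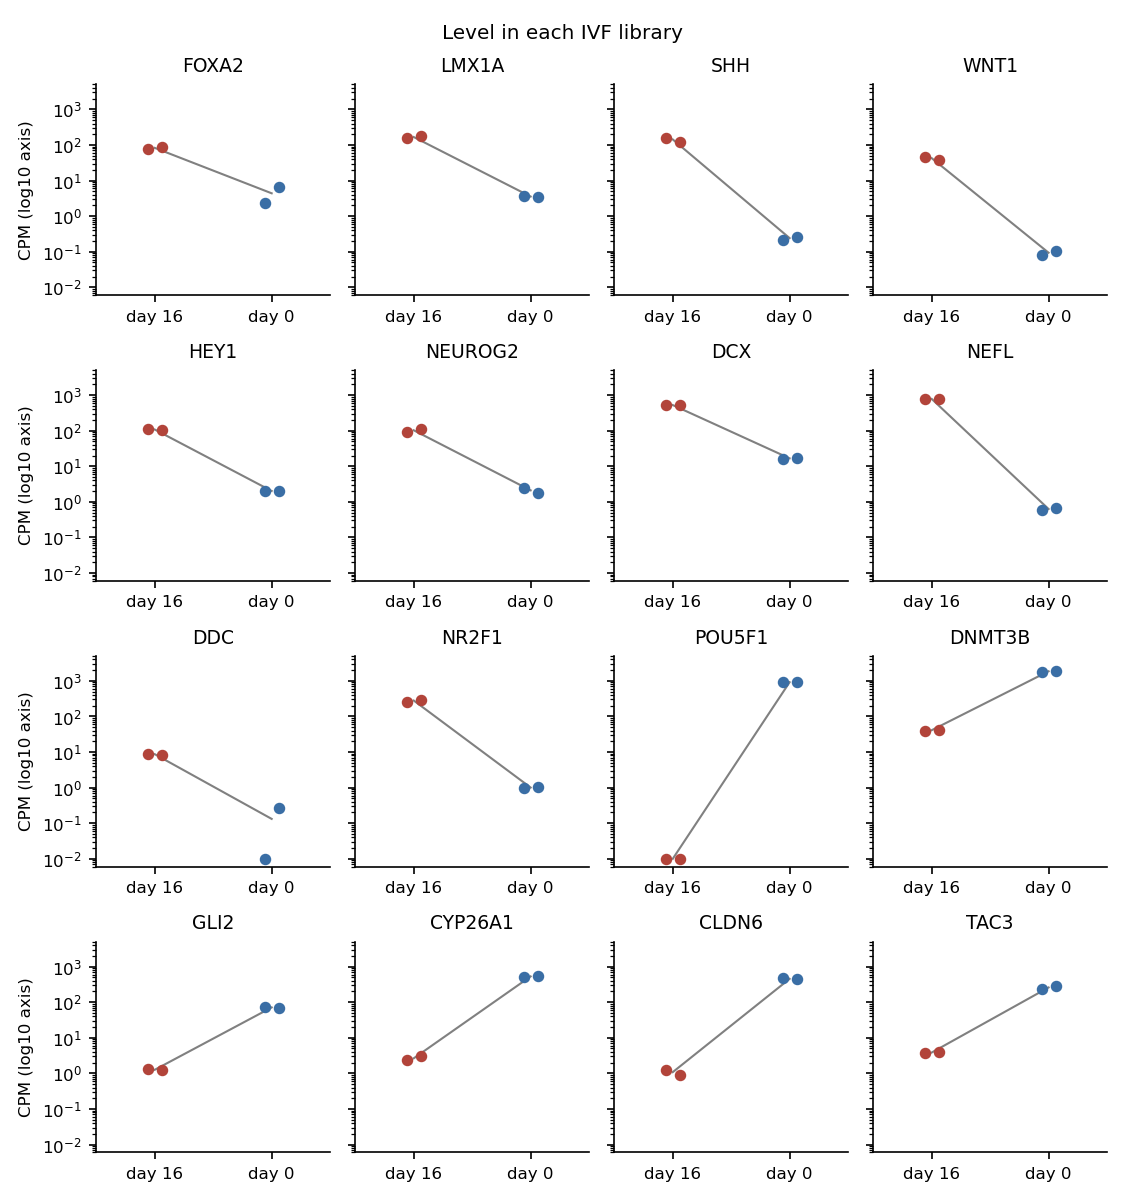
CPM of 16 genes in each IVF library at day 16 (left) and day 0 (right) on a log10 axis, with 0 counts drawn at 0.01 CPM. Points are single libraries and lines join the day means. POU5F1, DNMT3B, GLI2, CYP26A1, CLDN6 and TAC3 are higher at day 0, and the other 10 genes are higher at day 16.

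Axon guidance and neural adhesion genes counted 26 rises and 2 falls among 43. SLIT1, a repellent ligand gene, had 1186 and 1063 CPM at day 16, against 71.4 and 73.6 CPM at day 0 (log2 fold change 3.95 ± 0.25, edgeR adjusted p = 7.26e-09). Its receptor gene ROBO1 fell, at 169 and 166 CPM at day 16, against 489 and 434 CPM at day 0 (log2 fold change -1.46 ± 0.18, edgeR adjusted p = 8.20e-06), while the netrin receptor gene DCC rose, at 382 and 323 CPM at day 16, against 20 and 14.6 CPM at day 0 (log2 fold change 4.35 ± 0.26, edgeR adjusted p = 4.37e-09). Ligand and receptor thus moved oppositely for SLIT1 and ROBO1 and together for NTN1 and DCC. CNTN2, a surface protein gene of outgrowing axons, had 180.4 and 200.1 CPM at day 16, against 8.72 and 6.81 CPM at day 0. SEMA3E had 87.1 and 49.2 CPM at day 16, against 0.571 and 0.317 CPM at day 0. EPHA5 had no count at day 0 and 12.8 and 13.4 CPM at day 16, against 0 and 0 CPM at day 0.

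Synaptic genes rose in 19 of 36 cases and fell in 2. SYP, which encodes synaptophysin, had 47.7 and 46.7 CPM at day 16, against 5.98 and 5.84 CPM at day 0 (log2 fold change 3.00 ± 0.16, edgeR adjusted p = 1.18e-09). VAMP2, a vesicle fusion gene, had 287 and 323 CPM at day 16, against 29.7 and 23.6 CPM at day 0 (log2 fold change 3.52 ± 0.17, edgeR adjusted p = 7.30e-10). SNAP25 had 56 and 59.7 CPM at day 16, against 8.51 and 6.26 CPM at day 0 (log2 fold change 2.97 ± 0.17, edgeR adjusted p = 3.98e-09). SYN1 was low on both days, at 3.63 and 4.07 CPM at day 16, against 3.37 and 4.17 CPM at day 0, and was not called, and neither were SYT1, HOMER1 and the scaffold gene DLG4. The postsynaptic scaffold genes SHANK1 and DLG2 fell, SHANK1 to 19.1 and 15.8 CPM at day 16, against 81.2 and 75.1 CPM at day 0 (log2 fold change -2.16 ± 0.15, edgeR adjusted p = 2.01e-08). SYP, VAMP2 and SNAP25 thus rose while SHANK1 and DLG2 fell. LRRTM2, an adhesion gene of excitatory synapses, had 17 and 20.1 CPM at day 16, against 0 and 0 CPM at day 0, at least 231-fold higher.

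Of 35 ion channel genes tested, 19 rose and 7 fell. SCN3A, the sodium channel gene of embryonic brain, had 89.6 and 92.2 CPM at day 16, against 0.87 and 1.0 CPM at day 0 (log2 fold change 6.60 ± 0.23, edgeR adjusted p = 3.85e-11), while SCN1A had 46.4 and 50.4 CPM at day 16, against 178 and 170.0 CPM at day 0 (log2 fold change -1.85 ± 0.13, edgeR adjusted p = 3.13e-08). KCND3, an A-type potassium channel gene, had 149 and 185 CPM at day 16, against 1.85 and 1.06 CPM at day 0 (log2 fold change 6.85 ± 0.26, edgeR adjusted p = 5.55e-11). The sodium leak channel gene NALCN had 20.7 and 18.4 CPM at day 16, against 0.326 and 0.37 CPM at day 0. KCNJ6, known as GIRK2 and used as a marker of dopaminergic neurons, had 32.5 and 31.4 CPM at day 16, against 0.598 and 0.449 CPM at day 0.

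Receptor genes for transmitters rose in 17 of 36 cases and fell in 5. GRIA2, the AMPA receptor subunit gene that limits calcium entry, had 83.1 and 99.7 CPM at day 16, against 1.17 and 0.977 CPM at day 0 (log2 fold change 6.41 ± 0.22, edgeR adjusted p = 2.96e-11). CHRNA4, a nicotinic subunit gene, had 139 and 119 CPM at day 16, against 19.3 and 16.8 CPM at day 0. HTR2C, a serotonin receptor gene, had 10.3 and 11.8 CPM at day 16, against 0 and 0 CPM at day 0. DRD2, the dopamine autoreceptor gene, was lower at day 16, at 21.1 and 19.4 CPM at day 16, against 47.9 and 42.4 CPM at day 0 (log2 fold change -1.16 ± 0.12, edgeR adjusted p = 1.10e-06).

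The dopamine neuron list was partly switched on, with 11 of 22 up, 3 down and 8 not called. DDC, the decarboxylase gene that follows TH in dopamine synthesis, had 8.95 and 8.41 CPM at day 16, against 0 and 0.264 CPM at day 0 (log2 fold change 5.99 ± 0.52, edgeR adjusted p = 2.46e-07). NR4A2, the nuclear receptor gene NURR1, averaged 41.5 CPM at day 16 and 10.7 CPM at day 0 (log2 fold change 1.95 ± 0.20, edgeR adjusted p = 1.57e-06). PITX3 had 1.65 and 2.32 CPM at day 16, against 0 and 0 CPM at day 0, at least 24.7-fold higher. These synthesis and identity genes separated by day. The vesicle loading gene SLC18A2 had 0.339 and 0.192 CPM at day 16, against 1.33 and 2.19 CPM at day 0 (log2 fold change -2.72 ± 0.49, edgeR adjusted p = 3.05e-04). SLC6A3, the dopamine transporter gene, had 1.99 and 1.45 CPM at day 16, against 2.69 and 2.01 CPM at day 0. RET, the signalling receptor gene for GDNF, had 3.48 and 3.51 CPM at day 16, against 9.76 and 9.8 CPM at day 0 (log2 fold change -1.48 ± 0.16, edgeR adjusted p = 2.60e-06), and its partner gene GFRA1 was not called. CALB1 had 0.17 and 0.0639 CPM at day 16, against 0 and 0.238 CPM at day 0. GCH1, which makes the cofactor of TH, was not called.

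Genes of other transmitters were present beside the dopaminergic ones. Of 18 tested, 11 rose and 3 fell. SLC17A6, the vesicular glutamate transporter gene of subcortical neurons, had 80.4 and 93.4 CPM at day 16, against 0 and 0 CPM at day 0, at least 1081-fold higher. In TPM it reached 40.1 and 47.1 TPM at day 16, against 0 and 0 TPM at day 0. The GABA synthesis gene GAD1 had 7.44 and 10.1 CPM at day 16, against 0.353 and 0 CPM at day 0. GAD2 had 8.38 and 8.52 CPM at day 16, against 0 and 0.185 CPM at day 0. The choline transporter gene SLC5A7 had 24 and 28.2 CPM at day 16, against 0.788 and 0.528 CPM at day 0. Each of these separated by day. SLC17A7, the cortical counterpart of SLC17A6, fell, at 8.08 and 5.9 CPM at day 16, against 18 and 16.2 CPM at day 0.

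Neuropeptide genes included PMCH, the largest rise among genes with at least 5 CPM at day 16. The list counted 12 rises and 6 falls among 32. PMCH, the precursor gene of melanin-concentrating hormone in the lateral hypothalamus, had 221 and 189 CPM at day 16, against 0 and 0 CPM at day 0, at least 2548-fold higher. NTS, the neurotensin gene, had 21.6 and 22.9 CPM at day 16, against 0 and 0 CPM at day 0. ADCYAP1, which encodes PACAP, had 22.9 and 23.7 CPM at day 16, against 0 and 0 CPM at day 0. All 3 had no count at day 0. TAC3, the neurokinin B precursor gene, went the other way, at 3.82 and 3.9 CPM at day 16, against 232 and 287 CPM at day 0 (log2 fold change -6.07 ± 0.19, edgeR adjusted p = 1.21e-11). The granule genes SCG2 and CHGB and the prohormone convertase gene PCSK1 rose, with SCG2 at 62.2 and 57.8 CPM at day 16, against 0.0815 and 0.211 CPM at day 0. PCSK1 had 28.8 and 27.9 CPM at day 16, against 0.272 and 0.158 CPM at day 0. POMC, TRH and CRH, further hypothalamic precursors, were not called, but TRH was higher without day 0 replicate 1 (log2 fold change 1.78).

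Many enzymes and structural proteins exist as a general paralogue and one taken here as neuron-enriched. Which member was taken as neuron-enriched was set when the pairs were written and was not tested. Of 40 such pairs, 38 had both members tested, and the neuronal member rose in 21 and fell in 1, while the general member rose in 4 and fell in 6. Measured as the neuronal member's share of the pair's summed TPM, both day 16 libraries lay above both day 0 libraries in 30 pairs. The CPM of the days did not overlap for 83.4% of all genes tested, so such separation alone carries little information. No share was computed for other pairs of genes. For SNAP23 and SNAP25 the share of SNAP25 was 61.4% and 59.4% at day 16, against 11.3% and 7.62% at day 0. The RAB3A share of RAB3D and RAB3A was 77.1% and 79.3% at day 16, against 18.1% and 16.4% at day 0. In the SNAP pair only the neuronal member was called, and in the RAB3 pair both were. The DNMT3A share of the methyltransferase pair DNMT3B and DNMT3A was 58.2% and 60.9% at day 16, against 6.51% and 5.66% at day 0. In that pair the general member fell. DNMT3A was lower too but stayed under the 2-fold minimum and was not called (log2 fold change -0.91, edgeR adjusted p = 1.99e-06). HK1 beside HK2 was an exception, at 58.6% and 65.1% at day 16, against 88.6% and 91.4% at day 0. CPNE4 beside CPNE3 was another, at 4.76% and 5.71% at day 16, against 13.3% and 11.5% at day 0. The shares of PFKM beside PFKP, LDHB beside LDHA, SYT1 beside SYT11 and SS18L1 beside SS18 were also lower in both day 16 libraries. In the SYT pair the member taken as general, SYT11, was the one called as rising (log2 fold change 1.5).

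**Figure D4:**
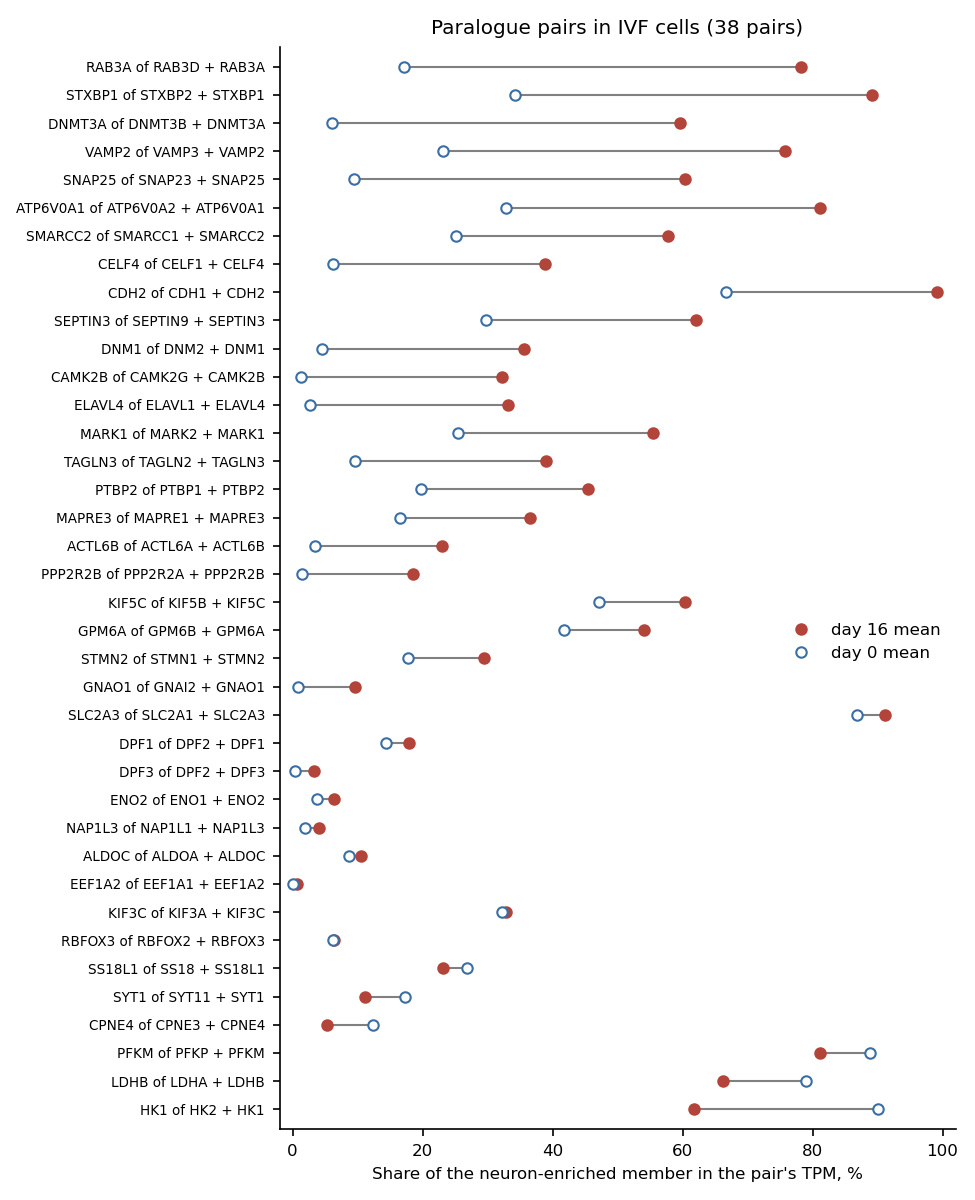
Share of the member taken as neuron-enriched in the summed TPM of each of 38 paralogue pairs in IVF cells. Filled circles are the day 16 mean and open circles the day 0 mean of 2 libraries each, joined by a line. In 30 pairs both day 16 libraries lie above both day 0 libraries. Over all genes tested, the CPM of the days did not overlap for 83.4%.

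In the list of splicing and RNA-binding factors 13 of 30 rose and 5 fell. SRRM4, the neuronal microexon factor gene, had 73.1 and 81.5 CPM at day 16, against 5.0 and 4.41 CPM at day 0 (log2 fold change 4.04 ± 0.18, edgeR adjusted p = 3.55e-10). ELAVL2 had 74.8 and 72.9 CPM at day 16, against 6.39 and 5.78 CPM at day 0. The epithelial splicing regulators went the other way, ESRP1 with 0 and 0.0639 CPM at day 16, against 51.7 and 52.2 CPM at day 0. ESRP2 had 0.191 and 0.0426 CPM at day 16, against 12.6 and 14.4 CPM at day 0 (log2 fold change -6.82 ± 0.69, edgeR adjusted p = 1.06e-06). PTBP1, the repressor of neuronal exons, had 436 and 431 CPM at day 16, against 826 and 853 CPM at day 0 and was not called (log2 fold change -0.95 ± 0.11, edgeR adjusted p = 2.60e-06), and PTBP2 and the silencer gene REST were not called.

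The epithelial list fell almost throughout. Of 38 tested, 35 fell, 1 rose and 2 were not called, with a median log2 fold change of -4.43. CLDN6, a tight junction gene of pluripotent cells, had 1.27 and 0.894 CPM at day 16, against 466 and 441 CPM at day 0 (log2 fold change -8.71 ± 0.33, edgeR adjusted p = 6.87e-11). The membrane serine protease gene ST14 had 0.148 and 0.0426 CPM at day 16, against 126 and 126 CPM at day 0 (log2 fold change -10.32 ± 0.53, edgeR adjusted p = 1.09e-09). Its inhibitor gene SPINT1 had 0.106 and 0 CPM at day 16, against 34.6 and 28.6 CPM at day 0. For these genes both day 16 libraries lay below both day 0 libraries. GRHL2, a master factor of epithelium, had 0.0636 and 0.0639 CPM at day 16, against 12.2 and 12.1 CPM at day 0 (log2 fold change -7.51 ± 0.66, edgeR adjusted p = 2.58e-07). The keratin gene KRT8 had 63.9 and 49.6 CPM at day 16, against 286 and 320.4 CPM at day 0. The desmosome gene DSP had 101 and 92.8 CPM at day 16, against 612 and 621 CPM at day 0. ITGA6 and CLDN5 were not called, but CLDN5 was lower without day 16 replicate 1 (log2 fold change -3.86).

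Cadherins moved both ways, with 15 of 29 up and 6 down. CDH1, epithelial cadherin, had 4.14 and 6.05 CPM at day 16, against 298 and 332 CPM at day 0 (log2 fold change -5.95 ± 0.16, edgeR adjusted p = 7.00e-12). CDH2, neural cadherin, had 836 and 783 CPM at day 16, against 748 and 691 CPM at day 0 and was not called, so that it was already high at day 0. Rising members included CDH8, at 62.4 and 53.2 CPM at day 16, against 3.67 and 2.98 CPM at day 0. CDH18 had 17.1 and 19 CPM at day 16, against 0.543 and 0.37 CPM at day 0. PCDH9 had 30.1 and 30.5 CPM at day 16, against 1.2 and 0.977 CPM at day 0. These neural members were at most a few CPM at day 0. CDH11, a mesenchymal cadherin, fell, at 149.7 and 164 CPM at day 16, against 531 and 490.0 CPM at day 0 (log2 fold change -1.70 ± 0.19, edgeR adjusted p = 2.25e-06).

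Matrix genes went both ways, 11 up and 8 down of 38, against 20.2% and 14.0% of all genes tested. The basement membrane genes NID1 and LAMB1 fell, NID1 with 4.03 and 6.03 CPM at day 16, against 222 and 233 CPM at day 0 (log2 fold change -5.50 ± 0.41, edgeR adjusted p = 4.38e-08). LAMB1 had 42 and 34.2 CPM at day 16, against 337 and 340.1 CPM at day 0 (log2 fold change -3.15 ± 0.15, edgeR adjusted p = 4.22e-10). COL5A2, a fibrillar collagen gene outside the list, was among the 15 genes with the largest gain, at 1236 and 1153 CPM at day 16, against 7.69 and 9.85 CPM at day 0. FN1 had 688 and 541 CPM at day 16, against 245 and 231 CPM at day 0. COL3A1 had 9.5 and 10.4 CPM at day 16, against 0 and 0 CPM at day 0. Fibroblast markers overlap this list, and 6 of 12 tested markers of fibroblasts rose. PDGFRB had 103 and 106 CPM at day 16, against 3.67 and 3.14 CPM at day 0. DCN had 3.5 and 5.32 CPM at day 16, against 0.245 and 0.238 CPM at day 0. LUM had 3.5 and 4.64 CPM at day 16, against 0.0544 and 0.132 CPM at day 0. COL1A1 and THY1 were not called and FBLN1 fell, and the summed level of the list was 354 and 351 CPM at day 16, against 399 and 388 CPM at day 0. The part of such cells in the matrix changes was not tested.

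In the chromatin list 5 of 39 rose and 6 fell, against 20.2% and 14.0% of all genes tested. Beside DNMT3B the falls were CBX2, SMARCC1, TRIM28, HMGA1 and TET1, the last near the 2-fold minimum and not called without day 16 replicate 2 (log2 fold change -0.96). CBX2, a Polycomb subunit gene, had 72.1 and 70.2 CPM at day 16, against 266 and 257 CPM at day 0. SMARCC1, a subunit gene of the BAF remodelling complex, had 187 and 176 CPM at day 16, against 423 and 461 CPM at day 0. CBX8 rose, at 15.8 and 13.6 CPM at day 16, against 1.52 and 2.27 CPM at day 0 (log2 fold change 2.95 ± 0.20, edgeR adjusted p = 1.86e-08). EZH2, DNMT1, UHRF1 and HDAC1 were not called.

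Imprinted genes rose in 11 of 25 cases and fell in 4. PEG10, a paternally expressed gene of retrotransposon origin, had 2028 and 1799.9 CPM at day 16, against 447 and 341 CPM at day 0 (log2 fold change 2.28 ± 0.32, edgeR adjusted p = 2.22e-05). MEG3, a maternally expressed RNA gene, had 106 and 127 CPM at day 16, against 16.9 and 18.5 CPM at day 0 (log2 fold change 2.72 ± 0.16, edgeR adjusted p = 4.31e-09). DIRAS3 had 229 and 215 CPM at day 16, against 2.83 and 2.93 CPM at day 0 (log2 fold change 6.27 ± 0.31, edgeR adjusted p = 6.80e-10). Paternally and maternally expressed genes were thus both among the rises. NNAT, also imprinted and neuronal, fell, as did KCNQ1 and SLC22A18. CDKN1C and GRB10 were not called.

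Cell cycle genes were called about as often as all genes tested, of which 20.2% rose and 14.0% fell. Of 45 cell cycle genes 9 rose, 8 fell and 28 were not called. MKI67, the gene of the proliferation antigen Ki-67, had 675 and 619 CPM at day 16, against 659.9 and 631 CPM at day 0, with overlapping libraries. TOP2A had 802 and 826 CPM at day 16, against 926 and 959 CPM at day 0. The G1/S cyclin gene CCNE1 fell, at 9.82 and 10.8 CPM at day 16, against 29.9 and 35.2 CPM at day 0 (log2 fold change -1.66 ± 0.18, edgeR adjusted p = 2.40e-06), as did the replication licensing gene MCM2. Of the genes that restrain the cycle, CDKN1A, CDKN2C and RB1 rose and CDKN1C was not called. CDKN1A had 87.5 and 70 CPM at day 16, against 18.7 and 23.3 CPM at day 0. CDKN2C had 14.4 and 16.5 CPM at day 16, against 0.353 and 0.132 CPM at day 0. RB1 had 61.4 and 70 CPM at day 16, against 14.6 and 15.3 CPM at day 0 (log2 fold change 2.13 ± 0.11, edgeR adjusted p = 8.42e-10). CCND1 and CDK6, which drive G1, rose beside them, CDK6 with 72.3 and 77.8 CPM at day 16, against 4.32 and 5.31 CPM at day 0.

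Ribosome assembly genes fell in part, and ribosomal protein genes were not called. Of 22 genes of ribosome biogenesis 13 fell and 0 rose, with a median log2 fold change of -1.11. FBL, the methyltransferase gene of the nucleolus, had 60.6 and 64.7 CPM at day 16, against 226 and 214 CPM at day 0 (log2 fold change -1.81 ± 0.13, edgeR adjusted p = 2.13e-08). POLR1B, a subunit gene of RNA polymerase I, had 26.9 and 25.2 CPM at day 16, against 87.9 and 86.3 CPM at day 0. None of 33 ribosomal protein genes tested was called, and their median log2 fold change was -0.29. MYC, a driver of ribosome production, had 33.7 and 37.4 CPM at day 16, against 20.7 and 18.9 CPM at day 0 and was not called.

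Glycolysis genes counted 4 rises and 1 fall of 26, and nuclear genes of the respiratory chain 0 rises and 2 falls of 23. Over all genes tested 20.2% rose and 14.0% fell. HK2, the growth-associated hexokinase gene, had 225 and 142 CPM at day 16, against 54.4 and 36.5 CPM at day 0, a rise that was not called without day 16 replicate 1 (log2 fold change 1.65) or without day 0 replicate 2 (1.75). The mitochondrial coactivator gene PPARGC1A had 17.3 and 18.2 CPM at day 16, against 0.19 and 0.264 CPM at day 0 (log2 fold change 6.27 ± 0.24, edgeR adjusted p = 6.60e-11). Of the genes on the mitochondrial chromosome, ATP6 had 2352 and 2370.3 CPM at day 16, against 4855 and 5590.3 CPM at day 0 and fell. COX1 had 14645 and 16285 CPM at day 16, against 18141 and 17479 CPM at day 0 and was not called. Mitochondrial genes took 3.61% and 3.755% of counts at day 16, against 4.878% and 4.917% at day 0.

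Stress genes rose in 10 of 25 cases and fell in 2. DDIT3, the endoplasmic reticulum stress factor gene CHOP, had 29.2 and 31.9 CPM at day 16, against 1.88 and 1.32 CPM at day 0 (log2 fold change 4.26 ± 0.43, edgeR adjusted p = 1.09e-06). JUN had 77 and 77.2 CPM at day 16, against 5.43 and 3.94 CPM at day 0. Among genes known to respond to low oxygen, VEGFA rose, at 127 and 126 CPM at day 16, against 28.8 and 28.2 CPM at day 0. EGLN3 fell, at 14.3 and 12.1 CPM at day 16, against 281 and 301 CPM at day 0 (log2 fold change -4.46 ± 0.16, edgeR adjusted p = 4.63e-11), and CA9 was not called. The oxygen-response genes thus had no common direction. The abundant chaperone gene HSPA8 fell, at 679.9 and 774 CPM at day 16, against 1929.7 and 2097 CPM at day 0. In the interferon list 11 of 25 rose and 4 fell. ISG15, a ubiquitin-like antiviral gene, had 14.6 and 18.2 CPM at day 16, against 0.707 and 1.53 CPM at day 0. Of 17 genes that respond to cAMP or activity, 6 rose and 1 fell, and FOS had 7.76 and 7.11 CPM at day 16, against 0.951 and 1.06 CPM at day 0.

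More trophic factor genes fell than rose, 9 of 19, with 5 up. BDNF, the factor also supplied in the medium, had 1.29 and 0.639 CPM at day 16, against 12.6 and 13.1 CPM at day 0 (log2 fold change -3.73 ± 0.35, edgeR adjusted p = 5.60e-07). Its receptor gene NTRK2 had 68.3 and 61.1 CPM at day 16, against 1.22 and 1.14 CPM at day 0 (log2 fold change 5.77 ± 0.28, edgeR adjusted p = 6.48e-10). Ligand and receptor transcripts moved in opposite directions. ARTN, a ligand of the GDNF family, had 0.17 and 0.149 CPM at day 16, against 10.8 and 10.2 CPM at day 0. Of 19 glycan synthesis genes 7 rose and 5 fell, and ST8SIA1, the synthase gene of disialogangliosides, had 74.9 and 76.9 CPM at day 16, against 2.47 and 2.22 CPM at day 0 (log2 fold change 5.01 ± 0.19, edgeR adjusted p = 5.55e-11).

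Markers of other cell types were not uniformly absent. Among all genes tested 20.2% rose and 14.0% fell. Counts near those shares in the short lists below carry little information about a cell type. FOXA2 is also an endoderm gene, and of 11 endoderm markers tested 2 rose and 5 fell. SOX17 was near 0 on both days, at 0.0848 and 0 CPM at day 16, against 0.0815 and 0 CPM at day 0. FOXA3 fell, at 0.106 and 0 CPM at day 16, against 20.1 and 19.4 CPM at day 0. OLIG2, a factor of motor neuron and oligodendrocyte precursors, rose, at 15.1 and 15.8 CPM at day 16, against 0.109 and 0.502 CPM at day 0. SOX10, shared by the oligodendrocyte and neural crest lists, had 0.0848 and 0 CPM at day 16, against 0.707 and 1.14 CPM at day 0. Of the oligodendrocyte lineage list 3 of 8 rose and 3 fell, and of the neural crest list 4 of 9 rose and 3 fell. The astrocyte list counted 3 rises and 2 falls of 9. GFAP, the astrocyte filament gene, had 2.69 and 2.0 CPM at day 16, against 1.93 and 1.85 CPM at day 0 and was not called. The summed level of the astrocyte list was 193 and 153 CPM at day 16, against 55.8 and 55.3 CPM at day 0, higher at day 16 although GFAP was not called. The neural crest list summed to 40.3 and 35.4 CPM at day 16, against 81.5 and 84.1 CPM at day 0, and the oligodendrocyte lineage list to 65.9 and 58.8 CPM at day 16, against 89.2 and 88.2 CPM at day 0. The choroid plexus and ependyma list counted 4 rises and 0 falls of 9, and the muscle list 2 rises and 3 falls of 7. FOXJ1, the factor of ciliated cells, had 12.4 and 11.2 CPM at day 16, against 0.245 and 0.475 CPM at day 0. ACTC1, a muscle actin gene, had 49.4 and 45.5 CPM at day 16, against 7.15 and 11.3 CPM at day 0. TNNT1, a muscle troponin gene, fell, at 1.8 and 1.23 CPM at day 16, against 179 and 133 CPM at day 0. The mesoderm list counted 4 rises and 1 fall of 9, and its summed level was 132 and 139 CPM at day 16, against 20.4 and 16 CPM at day 0. Of the trophectoderm and amnion list 3 of 7 rose and 2 fell, and of the endothelium list 1 of 7 rose and 2 fell. None of 4 microglia and blood markers tested was called. The part of such cells in the changes above was not tested.

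The same step in the PA line gave a separate set of 4 libraries. There 3331 genes (18.0% of those tested) rose and 2674 (14.4%) fell. Of the IVF rises 69.7% rose in PA cells, and of the PA rises 78.4% rose in IVF cells. Of the IVF falls 73.5% fell in PA cells, and of the PA falls 71.2% fell in IVF cells. The test of the difference between the steps, an interaction in the same fit, called 844 genes (4.56%) with a higher log2 change in IVF cells and 423 (2.28%) with a lower one, 6.84% in all. Genes that rose in IVF cells had a larger step in 554 cases and a smaller step in 130. These genes were selected by the IVF step, which is part of the difference tested. The excess of larger steps can follow from that selection, so no conclusion is drawn from it.

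Floor plate genes were among those with larger steps in IVF cells. Of the 23 tested, 10 had a higher step in IVF cells and 0 a lower one, against 4.56% and 2.28% of all genes tested. However, 22 of the 23 rose in the IVF step, which is part of the difference tested. The excess of higher steps can follow from that, as for the rising genes above, so no conclusion is drawn from these counts. CORIN, which averaged 228 CPM at day 16 and 0.133 CPM at day 0 in IVF cells, averaged 22 CPM at day 16 and 0.504 CPM at day 0 in PA cells (difference 5.27 ± 0.68, edgeR adjusted p = 2.37e-04). FOXA2 averaged 82.6 CPM at day 16 and 4.38 CPM at day 0 in IVF cells, and 14 CPM at day 16 and 28.2 CPM at day 0 in PA cells (difference 5.24 ± 0.47, edgeR adjusted p = 1.14e-05), so that it rose in the IVF line and fell in the PA line. FOXA1 averaged 250.4 CPM at day 16 and 0.723 CPM at day 0 in IVF cells, and 61.3 CPM at day 16 and 3.87 CPM at day 0 in PA cells (difference 4.45 ± 0.24, edgeR adjusted p = 1.11e-07). For these 3 genes the IVF level was higher at day 16 and lower at day 0 than the PA level. SHH also had a positive difference, but its day 16 levels were close, at 143 CPM at day 16 and 0.241 CPM at day 0 in IVF cells, and 112 CPM at day 16 and 1.5 CPM at day 0 in PA cells (difference 2.98 ± 0.38, edgeR adjusted p = 2.21e-04). DDC averaged 8.68 CPM at day 16 and 0.132 CPM at day 0 in IVF cells, and 0.806 CPM at day 16 and 0.366 CPM at day 0 in PA cells (difference 4.87 ± 0.89, edgeR adjusted p = 0.00295).

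Steps lower in IVF cells were found among rostral factors. Of 33 forebrain and hypothalamus factors tested, 14 had a lower step in IVF cells and 2 a higher one. Over all genes tested, 2.28% were lower and 4.56% higher. The neural progenitor and radial glia list counted 10 lower and 3 higher of 30. Of 12 dorsal and roof plate factors tested, 2 were lower and 1 was higher. PAX6 averaged 3.79 CPM at day 16 and 14.6 CPM at day 0 in IVF cells, and 9.11 CPM at day 16 and 0.0457 CPM at day 0 in PA cells (difference -9.55 ± 0.83, edgeR adjusted p = 9.41e-06). FEZF1 averaged 3.89 CPM at day 16 and 200.5 CPM at day 0 in IVF cells, and 48.4 CPM at day 16 and 18.8 CPM at day 0 in PA cells (difference -7.05 ± 0.40, edgeR adjusted p = 1.99e-07). RAX averaged 0.202 CPM at day 16 and 4.43 CPM at day 0 in IVF cells, and 7.79 CPM at day 16 and 2.53 CPM at day 0 in PA cells (difference -6.05 ± 0.72, edgeR adjusted p = 1.19e-04). For all 3 the IVF level was higher at day 0 and lower at day 16 than the PA level. SEMA3A, a repellent ligand gene, averaged 20.3 CPM at day 16 and 2.53 CPM at day 0 in IVF cells, and 65 CPM at day 16 and 0 CPM at day 0 in PA cells. Paternally expressed imprinted genes differed as well. PEG3 averaged 448 CPM at day 16 and 144 CPM at day 0 in IVF cells, and 5.06 CPM at day 16 and 0 CPM at day 0 in PA cells. MAGEL2 averaged 125 CPM at day 16 and 101 CPM at day 0 in IVF cells, and 113 CPM at day 16 and 0 CPM at day 0 in PA cells. PLAGL1 averaged 137 CPM at day 16 and 13.8 CPM at day 0 in IVF cells, and 4.94 CPM at day 16 and 5.24 CPM at day 0 in PA cells (difference 3.40 ± 0.22, edgeR adjusted p = 8.54e-07). PEG3 and MAGEL2 had no count in PA cells at day 0, so the size of their difference depends on the fit and is no bound.

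**Figure D5:**
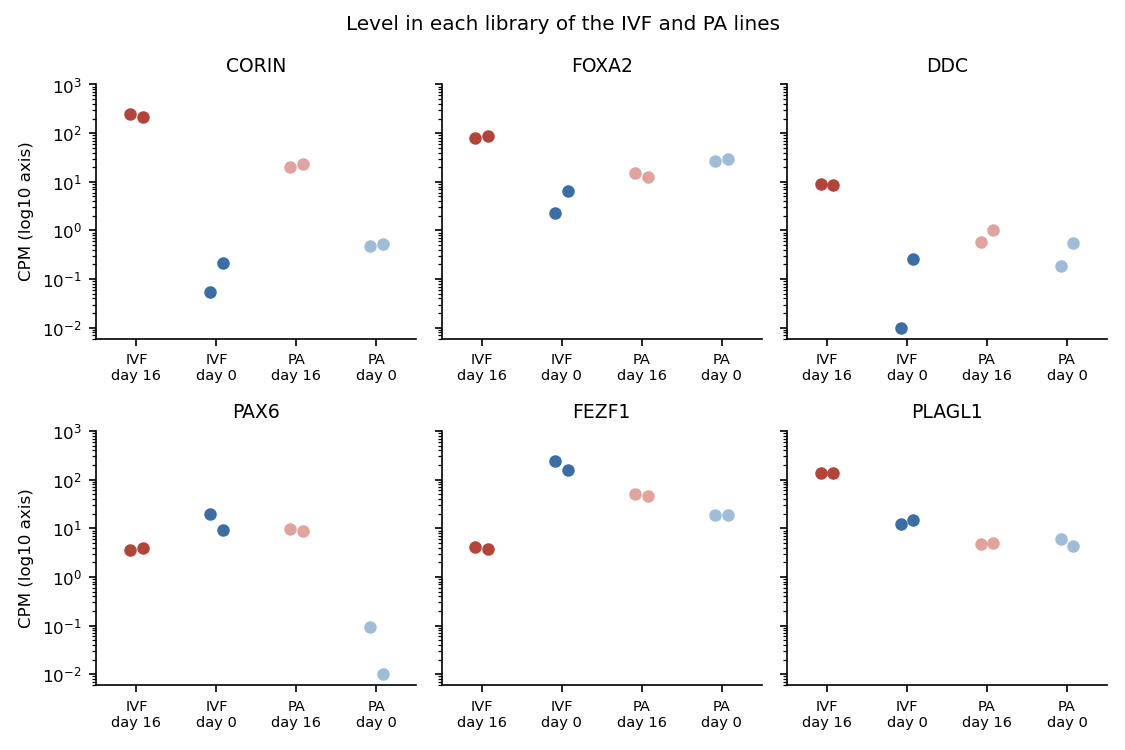
CPM of 6 genes in all 4 libraries of each line, with IVF cells at day 16 and day 0 on the left and PA cells at day 16 and day 0 on the right of each panel, on a log10 axis with 0 counts drawn at 0.01 CPM. Points are single libraries. FOXA2 is higher at day 16 in IVF cells and higher at day 0 in PA cells, and PAX6 shows the reverse.

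The next interval shares the day 16 libraries, so its values are given only as levels. In IVF cells at day 28, TH averaged 24.6 CPM, DDC 59.8 CPM and SLC18A2 4.22 CPM. At day 28, CORIN averaged 211 CPM, NEUROG2 11.4 CPM, MKI67 89.4 CPM and POU5F1 0 CPM. At day 28, PMCH averaged 12.6 CPM, NKX2-1 22.2 CPM and SLC17A6 58.4 CPM. The dopamine genes TH, DDC and SLC18A2 thus stood higher in the day 28 means than in the day 16 means, while CORIN stayed near its day 16 level.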

How the data were processed

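RNA of 16 libraries was sequenced after poly-A selection with a TruSeq Stranded mRNA kit. The submitters' processing notes name Trimmomatic 0.38, HISAT2 2.1.0, SAMtools 1.9, StringTie 2.1.3b and the build Sscrofa11.1. Raw read counts, FPKM and TPM per gene were deposited by the authors in 1 table of 28232 genes, and the strand setting of the counting is not given in the sources used here, so antisense and overlapping genes, and near-identical paralogues, remain uncertain. FPKM was not used. TPM, normalised by the authors for length and library total, served only between genes. The StringTie counts are derived from coverage and were taken as deposited.

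The 18528 genes that passed edgeR's filterByExpr over the 8 groups were fitted in R 4.3.3 with edgeR 4.0.16 (TMM scaling, quasi-likelihood test, all 16 libraries, 8 residual degrees of freedom). Calls required a Benjamini-Hochberg adjusted p under 0.05 and a fold of at least 2. The difference of the IVF and PA steps was an interaction contrast in that fit. Counts of 0 in both libraries of a day were bounded with 3 counts per library, and counting intervals (95%) cover counting error only. The test was first checked on simulated data.

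The 4 libraries were grouped by label. Members and the 53 gene lists (1182 genes, 1071 tested) were chosen with earlier results of these data known. Genes were named when they were list or pair members, among the 15 largest rises or falls of genes with at least 5 CPM, or among the 15 largest gains or losses of CPM, and for the step among the 8 largest differences each way. Promoter windows were cut with pysam 0.24.0 from the RefSeq Sscrofa11.1 genome, from 250 bases before to 50 after each start. Alternatives were other scalings, filters, DESeq2 1.42.0, a replicate block, fits of the compared libraries alone and the removal of each library. Some list members, 1 paralogue pair and 1 promoter are not reported here.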

Additional observations from a re-analysis of the deposited data

Results flagged for a closer look

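The day 16 to day 0 change of 78 of the 301 named genes differed between the IVF and PA lines by the edgeR test of the difference itself, 49 with a higher and 29 with a lower log2 change in IVF cells. Values below are the IVF log2 change minus the PA log2 change. For 7 of the genes, BARHL1, COL21A1, HES5, MAGEL2, PEG3, SEMA3A and SLC18A2, 1 of the 4 groups held 3 counts or fewer, so that the size of the difference depends on the fit and is no bound.

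Genes with a higher change in IVF cells were the following. The difference was 6.70 for BARHL1, 5.81 for SLC18A2, 5.27 for CORIN, 5.24 for FOXA2, 5.12 for GAD1 and 4.87 for DDC. It stood at 4.51 for BMP7, 4.46 for HES5, 4.45 for FOXA1, 4.11 for HEYL, 4.08 for FOXJ1 and 3.86 for SLC5A7. It came to 3.53 for TAL2, 3.48 for SMAD3, 3.40 for PLAGL1, 3.35 for ISG15, 3.18 for FOS and 2.98 for SHH. The difference was 2.97 for CHGB, 2.84 for KLF5, 2.67 for SLIT1, 2.57 for ESRRB, 2.33 for ACTC1 and 2.29 for KCNJ6. It stood at 2.23 for LMX1A, 1.97 for FGFBP3, 1.96 for KLF4, 1.83 for NTN1, 1.75 for SLC6A3 and 1.74 for ONECUT1. It came to 1.67 for MAPT, 1.51 for RXRG, 1.49 for COL5A2, 1.43 for CYP26A1, 1.40 for AXIN2 and 1.39 for ELAVL2. The difference was 1.38 for ID3, 1.37 for DUSP6, 1.37 for KCND3, 1.33 for ZNRF3, 1.27 for TGFB2 and 1.23 for EBF3. It stood at 1.22 for LAMB1, 1.17 for DRD2, 1.15 for CDH1, 1.12 for SNAP25, 1.08 for SYN1 and 1.05 for HEY1. It came to 1.02 for RET.

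Genes with a lower change in IVF cells were the following. The difference was -15.05 for MAGEL2, -11.55 for SEMA3A, -9.55 for PAX6, -9.23 for PEG3, -7.05 for FEZF1 and -6.05 for RAX. It stood at -5.03 for COL21A1, -4.82 for OTX1, -3.15 for GAS1, -2.94 for HEY2, -2.84 for GLI3 and -2.69 for SPINT1. It came to -2.45 for CDH8, -2.26 for TRH, -2.13 for SIX3, -2.10 for NID1, -1.95 for CRABP1 and -1.93 for POU3F2. The difference was -1.87 for DCC, -1.86 for SFRP1, -1.73 for FZD5, -1.63 for SOX9, -1.56 for PRPH and -1.55 for CRABP2. It stood at -1.51 for FST, -1.44 for GLI2, -1.32 for CDH11, -1.32 for TCF7L2 and -1.26 for LGR4.

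The call of 24 of these differences was lost in at least 1 alternative, which for most was the removal of a library. They were BARHL1, CDH1, COL21A1, EBF3, ELAVL2, FGFBP3, FOS, GAS1, GLI2, KCND3, KLF4, MAPT, NID1, ONECUT1, POU3F2, PRPH, RXRG, SLC18A2, SLC6A3, SNAP25, SPINT1, SYN1, TGFB2 and TRH. With 1 line per origin, line and origin cannot be told apart in any of these differences.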

How the results depend on the processing

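No called log2 change switched sign under any alternative tried. As reported, 3745 genes rose and 2590 fell. Calling without a minimum fold gave 5775 rises and 5573 falls, 333 falls among list genes and 812 step differences lower in IVF cells. DESeq2 with the study's criterion, an unadjusted p and 2-fold, gave 1328 higher and 706 lower step differences, against 844 and 423. On TPM in place of counts, rising genes held 11.3% of RNA at day 16, against 2.49% at day 0, and falling genes 6.64% at day 16, against 15.9% at day 0. Scaling by total counts alone raised the median log2 change of all tested genes to 0.12, gave 4071 rises and 2252 falls, and gave 7 rises and 6 falls in the chromatin list, against 5 and 6. Other normalisations, filters and DESeq2 with adjusted p stayed within 1.5 times of the main counts, apart from single lists.

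No label says that a replicate number marks a shared culture or day. The correlation of deviations between same-numbered libraries was 0.042 for IVF days 16 and 0 and 0.151 for IVF and PA at day 16, and ranged between -0.193 and 0.279 over all pairs of groups, so the numbers were not taken as pairs. A fit with the replicate block gave 3699 rises and 2538 falls, with 828 higher and 407 lower step differences.

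Without single libraries, rises numbered between 3426 and 3528, falls between 2348 and 2451, higher step differences between 655 and 680 and lower ones between 316 and 347. The remaining library of a day was then assumed to vary like those of the other groups. The calls of 6 named genes were lost in at least 1 alternative. HK2 lost its call without day 16 replicate 1 (1.65, edgeR adjusted p = 0.0523) and without day 0 replicate 2 (1.75, edgeR adjusted p = 0.069). PAX5 did so without day 16 replicate 2 (-1.48), day 0 replicate 1 (-1.76) or day 0 replicate 2 (-2.35), and under the block (-2.09), total counts (-1.96) and DESeq2 (-2.11). PAX2 did so without either day 16 library and under DESeq2, and FGF17 under DESeq2, both with 0 counts at day 16. FZD3 and TET1 lie close to the 2-fold minimum and fell below it in some fits, at 0.96 for FZD3 and -0.96 for TET1. Conversely, 26 genes named as not called were called without a minimum fold, and 7 in another alternative. LIN28B (-1.07), SOX2 (-1.01) and CLDN5 (-3.86) were called as lower without day 16 replicate 1. GBX2 was called as higher without day 16 replicate 2 (6.45) and by DESeq2 with an unadjusted p (4.55). TRH was called as higher without day 0 replicate 1 (1.78), with total counts and in other fits. HOXA2 (2.19) and PAX7 (2.28) were called as higher in the fit of the compared libraries alone.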
